A study of Mus musculus with 18 samples.

Results

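The sodium pump, the sodium-potassium-chloride cotransporter and the sodium-bicarbonate cotransporter of the lens were followed through 5 genes, chosen by symbol among the 40800 genes of the count table. *Atp1b1*, *Atp1b2* and *Atp1b3* encode the beta subunits of the sodium pump (Na,K-ATPase). *Slc12a2* encodes the cotransporter NKCC1 and *Slc4a4* the cotransporter NBCe1. All 5 passed the filter on low counts and were tested among 13938 genes.

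RNA from whole mouse lenses was sequenced in 18 libraries, 3 in each of 6 groups, and each library pooled several lenses. The *Cryaa* line was sampled at day 2 after birth and the *Cryab* line at day 14. Each line had WT lenses, lenses heterozygous for the mutation (*Cryaa*-R49C-het, *Cryab*-R120G-het) and lenses homozygous for it (*Cryaa*-R49C-homo, *Cryab*-R120G-homo). Both mutations are knock-in missense changes in an alpha-crystallin, the small heat shock proteins of the lens, on the C57BL/6J strain, and they are carried by every cell of the animal. The WT lenses of the 2 lines differ in line and in age at once, which cannot be told apart here.

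The lens has no blood vessels, and it keeps its fibre cells clear and at constant volume by moving ions and water through the tissue. The sodium pump, which is most active in the epithelium and at the equator, exports sodium and imports potassium. Its alpha subunit carries the transport cycle and its beta subunit is needed for folding, for delivery to the membrane and for potassium affinity. NKCC1 uses the sodium gradient to bring sodium, potassium and chloride into fibre cells and so counters shrinkage, and NBCe1 brings in bicarbonate with sodium and takes part in pH control.

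In the GRCm38 assembly the genes lie on 5 chromosomes. *Atp1b1* (ENSMUSG00000026576) spans chr1:164437109-164458355 and *Slc4a4* (ENSMUSG00000060961) spans chr5:88886818-89239653. *Atp1b3* (ENSMUSG00000032412) spans chr9:96332655-96364442 and *Atp1b2* (ENSMUSG00000041329) spans chr11:69599736-69605942. *Slc12a2* (ENSMUSG00000024597) spans chr18:57878678-57946821. Exons of *Nme7* overlap those of *Atp1b1* on the opposite strand, and no other annotated gene shares exon sequence with the 5 genes. *Nme7* had 6 to 155 counts per library against 66 to 180 for *Atp1b1*, and the strand setting of the counting is not stated, so reads of the pair cannot be fully told apart.

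Libraries held 14272174 to 29639719 counts. The summed level of 10 lens fibre markers was high in every library, from 31700 to 447000 CPM (counts scaled to library size, with edgeR's TMM factors), although the fibre gene *Lim2* was listed at 0 throughout. Markers of other eye tissues were present too. Photoreceptor markers (9 of 9 with a count) summed to 10.5 to 57.2 CPM in the *Cryaa* line and to 25.4 to 1320 CPM in the *Cryab* line. Vessel and mesenchyme markers (10 of 10 with a count) summed to 71.3 and 64.5 CPM in *Cryaa*-R49C-homo libraries 2 and 3, and to 18.8 to 39.8 CPM in the other 7 *Cryaa* libraries. *Cryaa* took 12.4 to 14.0% of the counts in its WT lenses and 5.37 to 21.0% in *Cryaa*-R49C-homo lenses, a level that cannot check the genotype of a missense knock-in. In pooled whole tissue, fewer cells of a type and less RNA per cell cannot be told apart. The p-values below measure only the spread between these libraries.

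**Figure D1:**
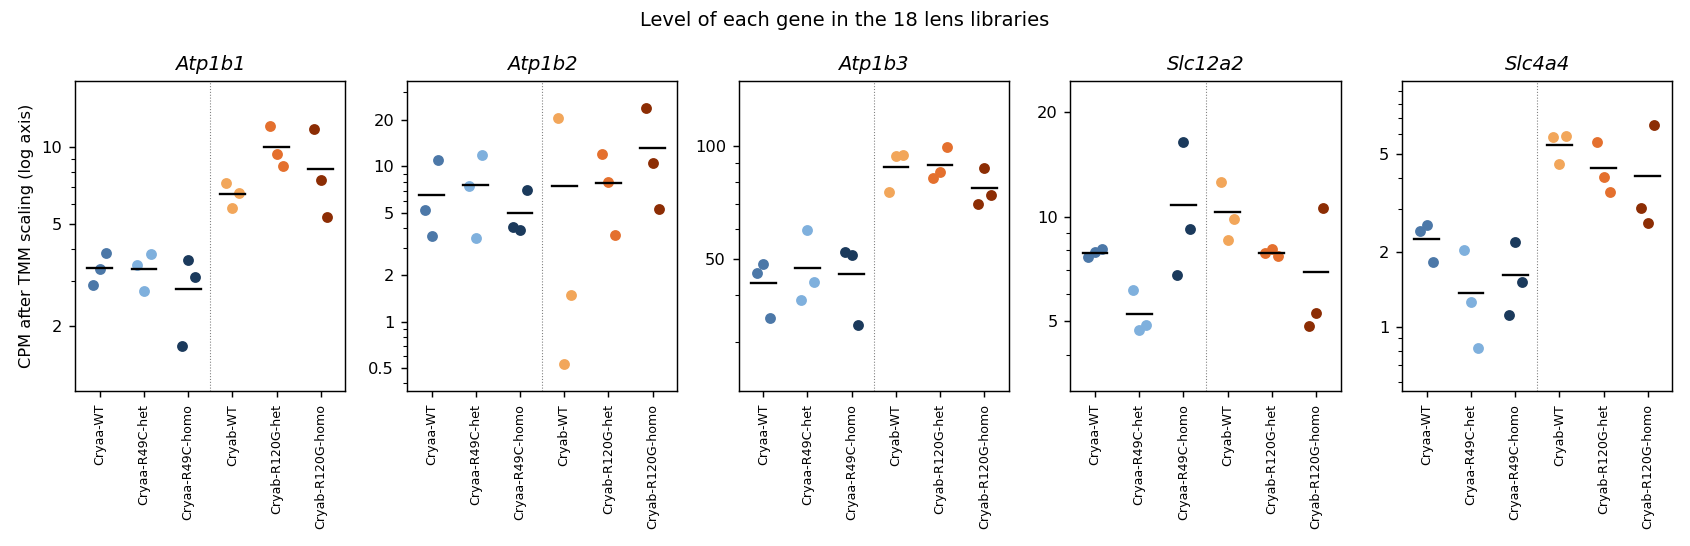
Level of the 5 genes in CPM after TMM scaling, on a log axis whose range differs between panels, with a point for each of the 18 libraries and a bar at each group mean. The *Cryab* libraries lie above the *Cryaa* libraries for *Atp1b1*, *Atp1b3* and *Slc4a4*, while *Atp1b2* ranges from 0.534 to 23.7 CPM within the *Cryab* line.

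The main beta subunit transcript of the lens was *Atp1b3*, which encodes the beta3 subunit. Per kilobase of exon, its level was 19.0 ± 3.62 CPM per kilobase in the *Cryaa* line and 35.4 ± 4.21 in the *Cryab* line (mean ± SD, n = 9 libraries each). *Atp1b1*, the beta1 subunit found in most epithelia, reached 1.31 ± 0.28 and 3.40 ± 1.0 CPM per kilobase in the same lines. *Atp1b2*, the beta2 subunit known from glia and photoreceptors, reached 1.57 ± 0.782 and 2.32 ± 1.99 CPM per kilobase. The lowest *Atp1b3* library stood at 14.0 CPM per kilobase and the highest *Atp1b1* or *Atp1b2* library at 5.81, so the beta3 transcript never overlapped the other two. The ranges of *Atp1b1* and *Atp1b2* overlapped in both lines.

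Of the cotransporters, *Slc12a2* had 1.22 ± 0.535 CPM per kilobase in the *Cryaa* line and 1.28 ± 0.374 in the *Cryab* line, which overlapped the level of *Atp1b1* in the *Cryaa* line and lay below it in the *Cryab* line. This order depends on the scaling by exon length. In plain CPM the means of *Slc12a2* and *Atp1b1* were 7.97 and 3.17 in the *Cryaa* line and 8.37 and 8.24 in the *Cryab* line. *Slc4a4* had the lowest line means of the 5 per kilobase, although *Atp1b2* lay below it in *Cryab*-WT libraries 2 and 3, with 0.162 ± 0.0563 and 0.428 ± 0.131 CPM per kilobase. Its highest libraries, 0.237 in the *Cryaa* line and 0.608 in the *Cryab* line, lay below the lowest *Slc12a2* libraries of those lines, at 0.723 and 0.744 CPM per kilobase. At 33 to 86 counts per library, *Slc4a4* rested on few reads.

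Among the 3 beta subunit transcripts, *Atp1b3* made up 73.3 to 94.0% of the summed CPM per kilobase in each of the 18 libraries. Its mean share was 86.3 ± 5.66% in the *Cryaa* line and 86.0 ± 6.77% in the *Cryab* line (n = 9 each). *Atp1b1* held 6.14 ± 1.72% and 8.27 ± 2.36%, and *Atp1b2* held 7.52 ± 4.21% and 5.75 ± 4.99%. The *Atp1b2* share ran from 0.313% in *Cryab*-WT library 2 to 14.5% in *Cryab*-R120G-homo library 1.

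**Figure D2:**
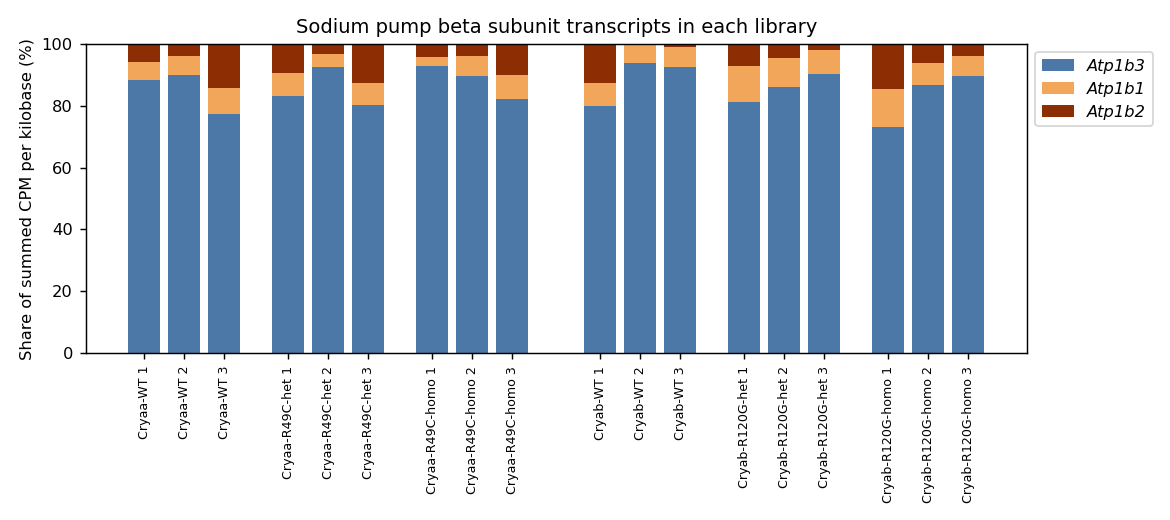
Share of *Atp1b3*, *Atp1b1* and *Atp1b2* in the summed CPM per kilobase of the beta subunits, in percent, with a stacked bar for each of the 18 libraries. *Atp1b3* fills 73.3 to 94.0% of every bar, and the *Atp1b2* segment runs from 0.313 to 14.5%.

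These shares were compared between het and WT, homo and WT, and the 2 WT groups, which gave 15 comparisons. None passed an exact two-sided permutation test, whose smallest possible p is 0.1 with 3 libraries against 3. That smallest p was reached once, by *Atp1b1* in *Cryab*-R120G-het lenses, at 9.61 ± 2.11% against 6.58 ± 0.946% in WT (exact permutation p = 0.1, adjusted p = 0.955). The largest difference was that of *Atp1b3* in *Cryab*-R120G-homo lenses, 83.2 ± 8.78% against 88.8 ± 7.87% in WT (exact permutation p = 0.5, adjusted p = 0.955). Same-numbered libraries of these 2 groups deviated together, a pairing this test does not use. Within each number the *Atp1b3* share was lower in homo than in WT, with 73.3 against 79.8%, 86.7 against 94.0% and 89.8 against 92.7%, and the *Atp1b2* share was higher. Leaving out single libraries moved the *Atp1b3* difference from -5.57 percentage points to between -10.1 (without WT library 1) and -0.587 (without homo library 1).

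The clearest differences in the sodium pump and bicarbonate genes lay between the WT lenses of the 2 lines. *Atp1b3* stood at 45.8, 48.6 and 34.9 CPM in the 2-day-old WT libraries and at 75.2, 93.8 and 94.2 CPM in the 14-day-old WT libraries. The groups did not overlap, and the difference was 2.04-fold (log2 fold change 1.03, SE 0.22, edgeR quasi-likelihood FDR = 0.00209). *Atp1b1* stood at 2.90, 3.34 and 3.85 CPM at day 2 and at 7.27, 5.80 and 6.60 CPM at day 14. This was a 1.94-fold difference (log2 fold change 0.96, SE 0.29, edgeR FDR = 0.0222).

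*Slc4a4* showed the largest fold of the 3 called genes. Its WT libraries held 2.43, 2.57 and 1.82 CPM at day 2 and 5.84, 4.54 and 5.94 CPM at day 14, with no overlap. The difference was 2.38-fold (log2 fold change 1.25, SE 0.36, edgeR FDR = 0.0145). *Slc12a2* also had higher WT libraries at day 14, with 12.6, 8.54 and 9.87 CPM against 7.63, 7.90 and 8.09 CPM, but did not pass the threshold (log2 fold change 0.38, 95% interval -0.23 to 0.99, edgeR FDR = 0.373). *Atp1b2* did not differ beyond its spread (log2 fold change 0.11, 95% interval -2.08 to 2.31, edgeR FDR = 0.953).

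Of the 8 marker lists, 5 separated the WT groups without overlap. The photoreceptor (25.4 to 891 CPM at day 14, 10.5 to 43.0 at day 2), inner retina and glia (8.81 to 48.4 and 31.0 to 68.8) and erythrocyte lists (2.94 to 23.1 and 7.36 to 12.2) overlapped. Lens fibre markers summed to 398000 to 447000 CPM at day 14 and 74100 to 113000 at day 2. Lens epithelium markers summed to 47.8 to 68.3 CPM at day 14 and 78.2 to 107 at day 2, and those of pigment and ciliary epithelium to 6.06 to 8.41 and 19.5 to 33.4. Vessel and mesenchyme markers summed to 8.87 to 11.8 CPM at day 14 and 21.7 to 39.8 at day 2, and macrophage markers to 0.60 to 2.42 and 6.75 to 15.4. Their part in the levels of the ion transport genes was not tested.

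Thus 3 of the 5 genes were called higher at day 14, where 23.2% of all tested genes were called and 11.7% were called higher. Over all genes, 1634 were called higher and 1603 lower, or 157 and 11439 with total-count scaling. For 4 of the 5 genes every day 14 library lay above every day 2 library, as was true of 20.2% of all tested genes. The direction is relative to the bulk of genes. When libraries were scaled by their total count alone, the median of all genes moved from -0.07 to -1.61 on the log2 scale and all 5 genes turned negative. *Atp1b3* then stood at -0.49, *Atp1b1* at -0.63, *Slc4a4* at -0.26, *Atp1b2* at -1.60 and *Slc12a2* at -1.19, the last with edgeR FDR = 0.00278. Measured from the median of all genes, the log2 differences were 1.09 and 1.13 for *Atp1b3*, 1.02 and 0.98 for *Atp1b1*, 1.32 and 1.35 for *Slc4a4* and 0.45 and 0.43 for *Slc12a2* under TMM and total-count scaling. Without *Cryab*-WT library 3 the calls of *Atp1b1* (log2 fold change 0.95, edgeR FDR = 0.0594) and *Slc4a4* (1.18, edgeR FDR = 0.0539) were lost. The *Atp1b1* call was also lost without *Cryaa*-WT library 1, *Cryaa*-WT library 2 or *Cryab*-WT library 1, with log2 fold changes of 0.86, 0.94 and 0.88 (edgeR FDR = 0.0821, 0.0612 and 0.0561), and that of *Slc4a4* without *Cryaa*-WT library 3, at 1.11 (edgeR FDR = 0.0773). Over the alternatives tried, the FDR lay between 0.00391 and 0.127 for *Atp1b1*, 2.14e-05 and 0.0691 for *Atp1b3* and 0.00138 and 0.511 for *Slc4a4*.

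**Figure D3:**
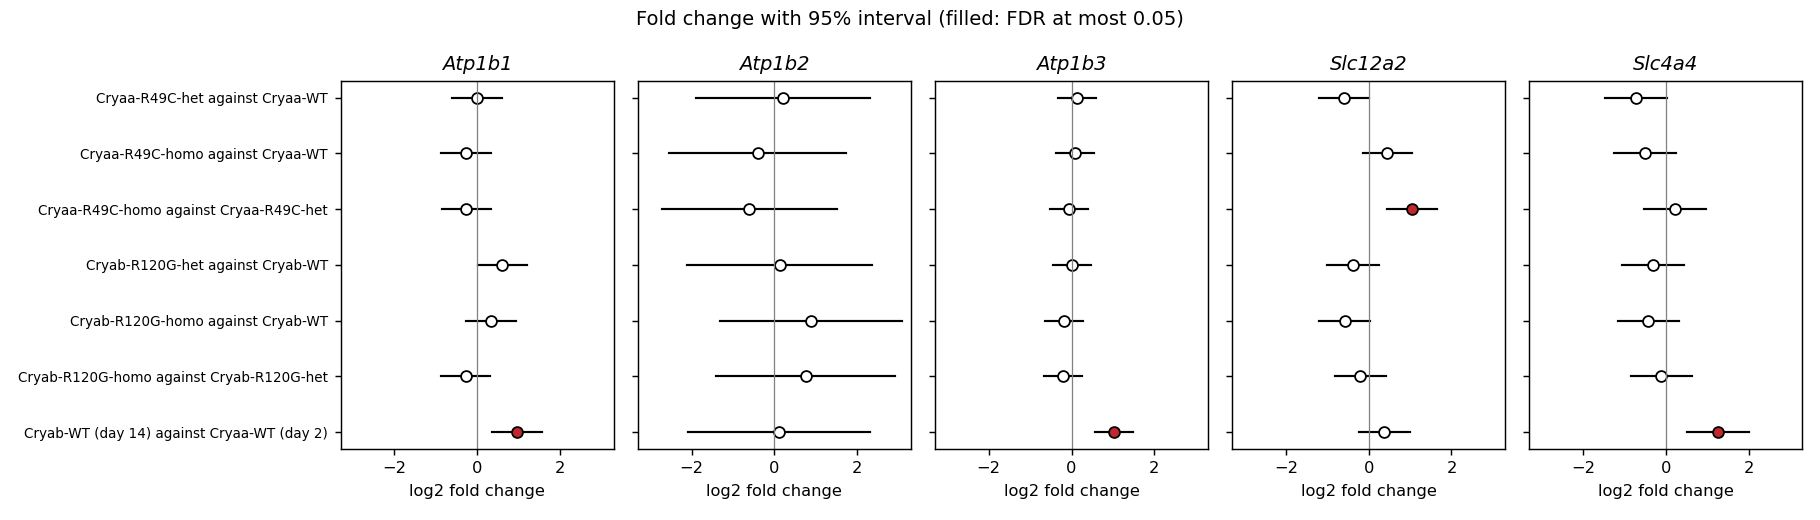
Log2 fold changes of the 5 genes in 7 comparisons, with points for the edgeR estimate and lines for the 95% interval, filled where the FDR is at most 0.05. The filled points are *Slc12a2* in *Cryaa*-R49C-homo against het at 1.04 and *Atp1b1*, *Atp1b3* and *Slc4a4* in the comparison of the WT groups at 0.96, 1.03 and 1.25.

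In 2-day-old *Cryaa* lenses, *Slc12a2* was the only one of the 5 genes with a called difference between genotypes. Its WT libraries were close together at 7.63, 7.90 and 8.09 CPM. The het libraries stood lower, at 6.16, 4.71 and 4.86 CPM, and the homo libraries at 6.81, 16.4 and 9.24 CPM. Het and homo did not overlap, homo library 1 fell below WT, and homo libraries 2 and 3 lay above it. NKCC1 transcripts were 2.06-fold higher in *Cryaa*-R49C-homo than in *Cryaa*-R49C-het lenses (log2 fold change 1.04, SE 0.29, edgeR FDR = 0.0285), where 8.32% of all genes were called and 4.69% were called higher. All homo libraries of 11.6% of the genes lay above all het libraries.

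Against WT, *Slc12a2* did not pass in either genotype. The het value was -0.59 (SE 0.29, 95% interval -1.19 to 0.02, edgeR FDR = 0.836) and the homo value 0.45 (SE 0.29, 95% interval -0.14 to 1.05, edgeR FDR = 0.361), both as log2 fold changes. The homo value was 0.03 without homo library 2 (edgeR FDR = 0.976) and 0.70 without homo library 1 (edgeR FDR = 0.0652). Every het library of *Slc12a2* lay below every WT library, as was true of 12.3% of all tested genes.

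The size of the difference in *Slc12a2* between homo and het depended on homo library 2, without which it was 0.61 (edgeR FDR = 0.294). Without het library 1, 2 or 3 it stayed at 1.17, 0.97 and 0.98 but did not pass (edgeR FDR = 0.0548, 0.111 and 0.124). Fitted on the 9 *Cryaa* libraries alone, it was 1.05 (edgeR FDR = 0.0573). Over the alternatives tried, its FDR lay between 0.000959 and 0.641. The homo libraries with the high *Slc12a2* levels, 16.4 and 9.24 CPM, were those with 71.3 and 64.5 CPM of vessel and mesenchyme markers, and homo library 1, at 6.81 CPM, had 21.1 CPM of them. All 3 homo libraries had more macrophage markers, 15.7 to 31.5 CPM against 8.31 to 13.3 in het and 6.75 to 15.4 in WT. They had less than het, without overlap, of lens fibre markers (31700 to 77200 against 81200 to 122000 CPM), of lens epithelium markers (62.9 to 73.0 against 81.6 to 87.0 CPM) and of pigment and ciliary epithelium markers (6.39 to 15.2 against 18.8 to 20.2 CPM). With homo libraries 2 and 3 left out together, the log2 difference from het was 0.39 (edgeR FDR = 0.641) and that from WT turned to -0.19 (edgeR FDR = 0.759), from a single homo library whose spread is taken from the other groups. The part of these tissues in the *Slc12a2* level was not tested.

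None of the beta subunit genes, and not *Slc4a4*, was called in *Cryaa*-R49C-het or *Cryaa*-R49C-homo lenses against WT, where 0.00717% (1 gene) and 9.79% of all genes were called. *Atp1b3* had 39.0, 59.8 and 43.4 CPM in het and 52.3, 51.1 and 33.4 CPM in homo libraries, and its log2 fold change in homo was 0.08 (95% interval -0.38 to 0.54). This interval did not reach a 2-fold change in either direction. *Atp1b1* had 3.46, 2.75 and 3.81 CPM in het and 1.67, 3.61 and 3.12 CPM in homo libraries, where the log2 value against WT was -0.28 (95% interval -0.88 to 0.33, edgeR FDR = 0.62). That value was -0.0 without homo library 1 and -0.99 with it as the single homo library (edgeR FDR = 0.996 and 0.0835).

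*Slc4a4* stood at 2.04, 1.26 and 0.823 CPM in het and 1.12, 2.20 and 1.52 CPM in homo libraries. Both means, 1.38 and 1.61 CPM, were under the WT mean of 2.27 CPM. The groups overlapped, and neither log2 fold change passed, at -0.72 in het (95% interval -1.47 to 0.03, edgeR FDR = 0.836) and -0.50 in homo (95% interval -1.24 to 0.25, edgeR FDR = 0.436).

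In 14-day-old *Cryab* lenses none of the 5 genes was called in any comparison of genotypes. Over all genes, edgeR called 1 gene (0.00717%) in het and 7 genes (0.0502%) in homo against WT, or 18 genes in homo with the replicate number as a block, under which none of the 5 genes was called. Between homo and het it called 0 genes (0%), with 274 genes at an unadjusted p under 0.05 and 0 genes called by DESeq2. *Atp1b3*, the main beta subunit, stood at 81.8, 85.3 and 98.9 CPM in het and at 69.9, 87.2 and 74.1 CPM in homo libraries. Each homo library lay below the WT library of the same number, and how many of all genes did so was not counted. The log2 fold change of *Atp1b3* against WT was 0.01 in het (95% interval -0.45 to 0.47) and -0.19 in homo (95% interval -0.65 to 0.27).

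*Atp1b1* stood higher in het than in WT *Cryab* libraries. Its het libraries held 12.1, 9.40 and 8.48 CPM, all above the WT libraries at 7.27, 5.80 and 6.60 CPM. The log2 fold change was 0.61 (SE 0.29, 95% interval 0.01 to 1.21) and did not pass (edgeR FDR = 1.0). Homo libraries, at 11.8, 7.43 and 5.35 CPM, overlapped both other groups. In this comparison all het libraries lay above all WT libraries for 4.62% of the tested genes and below them for 5.47%. Markers of other tissues were also higher in the same het libraries without overlap, with erythrocyte markers at 26.7 to 78.6 CPM against 2.94 to 23.1 in WT and pigment and ciliary epithelium markers at 9.67 to 27.7 against 6.06 to 8.41. Their part in the *Atp1b1* level was not tested.

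*Slc12a2* stood lower in het than in WT *Cryab* libraries, at 7.84, 8.09 and 7.71 CPM, also without overlap (log2 fold change -0.38, SE 0.30, edgeR FDR = 1.0). Its homo libraries stood at 4.85, 5.28 and 10.6 CPM, with 2 libraries below every WT library and the other within the WT range (log2 fold change -0.58, 95% interval -1.20 to 0.04, edgeR FDR = 0.843). *Slc4a4* stood at 3.01, 2.64 and 6.58 CPM in homo libraries and at 5.59, 4.05 and 3.50 CPM in het libraries, and both groups overlapped WT. Its log2 fold changes were -0.42 in homo (95% interval -1.16 to 0.32) and -0.32 in het (95% interval -1.06 to 0.43). *Cryab*-R120G-homo library 3 was thus the highest of its group for both cotransporters.

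Whether the homo effect, meaning the difference of homo from WT lenses, differed between the lines was tested directly. In this contrast 2.91% of all genes were called. For *Slc12a2* the homo effect was 1.03 higher on the log2 scale in the *Cryaa* line (SE 0.42, 95% interval 0.17 to 1.9) and did not pass (edgeR FDR = 0.221). It passed without *Cryaa*-R49C-homo library 1 (1.28, edgeR FDR = 0.0246) or without *Cryab*-R120G-homo library 3 (1.47, edgeR FDR = 0.045). It was 0.38 with *Cryaa*-R49C-homo library 1 as the single homo library of that line (edgeR FDR = 0.66). The other 4 genes did not pass, with differences of -1.29 for *Atp1b2*, -0.60 for *Atp1b1*, 0.27 for *Atp1b3* and -0.07 for *Slc4a4*.

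*Atp1b2* varied more than the other 4 genes in the *Cryab* line. Its WT libraries there held 20.4, 0.534 and 1.48 CPM, its het libraries 12.0, 7.89 and 3.64 CPM and its homo libraries 23.7, 10.5 and 5.35 CPM. The lowest of these values rests on 8 counts and the highest on 362. The highest *Cryab* library was 44.4 times the lowest, against 1.41 times for *Atp1b3*, 2.26 times for *Atp1b1*, 2.59 times for *Slc12a2* and 2.49 times for *Slc4a4*. In the *Cryaa* line the *Atp1b2* levels were 5.24, 3.55 and 11 CPM in WT, 7.52, 3.45 and 11.8 CPM in het and 4.05, 3.90 and 7.07 CPM in homo libraries, and the highest was 3.41 times the lowest, against 3.48 times for *Slc12a2* and 3.12 times for *Slc4a4*. The first library had the most *Atp1b2* in each *Cryab* group and the third in each *Cryaa* group.

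No *Atp1b2* difference between genotypes of a line passed in edgeR's quasi-likelihood test. The log2 fold change of *Cryab*-R120G-homo against WT was 0.89 with a 95% interval of -1.31 to 3.08 (edgeR FDR = 0.964). Same-numbered libraries of these groups deviated together, and within each number the homo library had more *Atp1b2* than the WT library, with 23.7 against 20.4, 10.5 against 0.534 and 5.35 against 1.48 CPM. How many of all genes were higher in homo within each number was not counted. The photoreceptor markers were higher in the same homo libraries, with 1320 against 891, 667 against 25.4 and 227 against 90 CPM. With the replicate number as a block the log2 fold change was 1.51 (edgeR FDR = 0.584). A likelihood-ratio test with robust dispersions, which down-weights single libraries, gave 2.94 for the same comparison (edgeR FDR = 0.00846) and -2.07 for the comparison of the WT groups (edgeR FDR = 0.0118). The same test gave -3.33 for the difference in homo effect between the lines (edgeR FDR = 0.00485), which the quasi-likelihood test on all counted genes also called, at -1.28 (edgeR FDR = 0.039). Without *Cryab*-WT library 1 the comparison of the WT groups turned from 0.11 to -2.73 (edgeR FDR = 0.0411).

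*Atp1b2* followed the retina markers of each library. *Cryab*-WT library 2, with 0.534 CPM of *Atp1b2*, had 25.4 CPM of summed photoreceptor markers, and *Cryab*-R120G-homo library 1, with 23.7 CPM, had 1320 CPM. Over the 9 *Cryab* libraries, with the genotypes pooled, the log2 levels correlated with r = 0.98 (exact permutation p = 2.76e-06, adjusted p = 0.00011) and the ranks were identical (rho = 1.0, exact permutation p = 5.51e-06, adjusted p = 0.00022). With the 2 libraries farthest from the median left out, r was 0.95. Over the 9 *Cryaa* libraries r was 0.93 (exact permutation p = 0.000711, adjusted p = 0.0108) and rho 0.83 (exact permutation p = 0.00827, adjusted p = 0.0735), and r was 0.79 without the 2 farthest.

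Inner retina and glia markers gave r = 0.91 in the *Cryaa* line (exact permutation p = 0.00081, adjusted p = 0.0108) and r = 0.97 in the *Cryab* line (exact permutation p = 2.76e-06, adjusted p = 0.00011). Their rho values were 0.92 (adjusted p = 0.0262) and 1.0 (adjusted p = 0.00022), and r was 0.74 and 0.97 without the 2 farthest libraries. Of these 10 markers, *Grm6* was at 0 in all *Cryaa* libraries. In the *Cryab* line *Atp1b2* also followed macrophage markers (r = 0.96, adjusted p = 0.00345, rho = 0.97, adjusted p = 0.00441, 9 libraries, r = 0.80 without the 2 farthest), whose sum lay between 0.60 and 4.19 CPM. In all, 80 relations of a gene, a marker list and a line were computed and adjusted together.

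**Figure D4:**
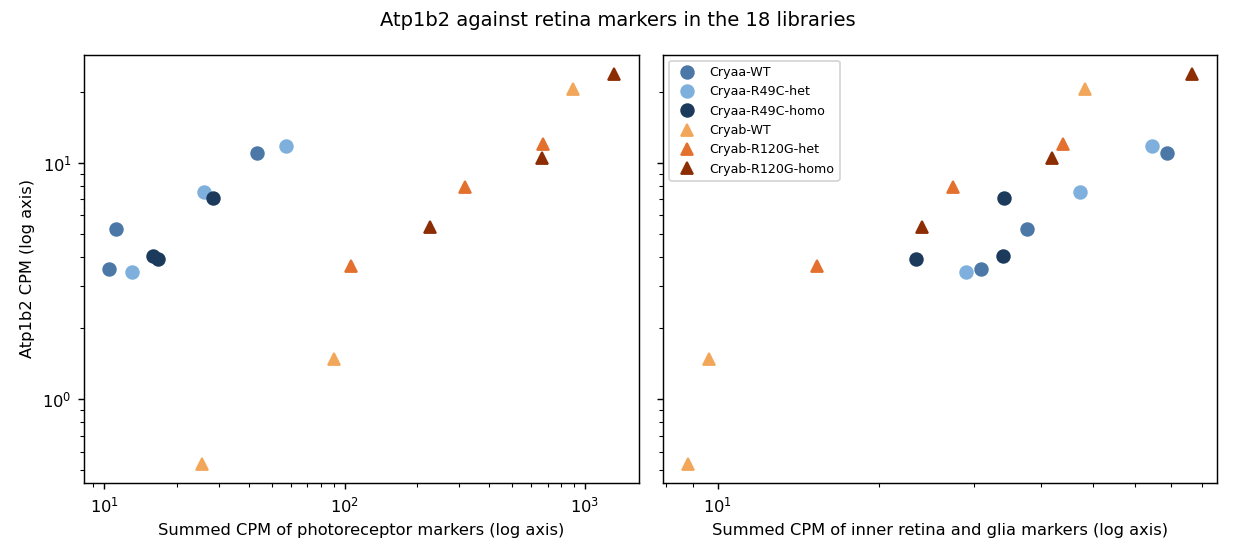
Level of *Atp1b2* in CPM against the summed CPM of photoreceptor markers (left) and of inner retina and glia markers (right), on log axes, with a point for each library, circles for the *Cryaa* line and triangles for the *Cryab* line. In the *Cryab* line the points climb from 0.534 CPM of *Atp1b2* at 25.4 CPM of photoreceptor markers to 23.7 CPM at 1320 CPM.

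After the mean of each line was taken out, its log2 CPM over the 18 libraries was most like that of *Ankrd33b* (r = 0.98), of *Crx* (r = 0.97) and of *Nr2e3* (r = 0.97), the last 2 being transcription factors of photoreceptors. The photoreceptor marker *Sag* and the glial marker *Rlbp1* had r = 0.97 and 0.96 with it. These points share libraries, depth and scaling, and the values are a description. With the first library of each *Cryab* group left out, which has the most photoreceptor markers of its group, the log2 difference in *Atp1b2* between the WT groups was -2.74 (edgeR FDR = 0.011) and that of *Cryab*-R120G-homo against WT was 2.99 (edgeR FDR = 0.213). The part of retinal RNA in the *Atp1b2* values was not tested.

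*Slc12a2* correlated with the vessel and mesenchyme markers over the 9 *Cryaa* libraries, with r = 0.84 (exact permutation p = 0.00032, adjusted p = 0.00639). Its ranks gave rho = 0.87 (exact permutation adjusted p = 0.0601). *Cryaa*-R49C-homo libraries 2 and 3 stand apart in those markers, and r was 0.59 without the 2 libraries farthest from the median. The part of vessel RNA in the *Slc12a2* level was not tested. *Atp1b3* ran opposite to *Atp1b2* (r = -0.60 over the 18 libraries, line means taken out). Its relation to the lens fibre markers of the *Cryab* line (r = 0.82, exact permutation p = 0.00995) did not pass after adjustment (adjusted p = 0.114, rho = 0.83, adjusted p = 0.0735, r = 0.78 without the 2 farthest libraries). The genes most like it were *Zbtb8os* (r = 0.88), *Etf1* (r = 0.87) and *Tlcd2* (r = 0.87). *Atp1b1* was most like *Lrrn3* (r = 0.84), *Fut9* (r = 0.82) and *Glra2* (r = 0.81), and had r = 0.56 with *Atp1b2*.

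The cotransporters were more like each other than like the pump subunits. *Slc12a2* and *Slc4a4* had r = 0.70 (rho = 0.72) over the 18 libraries after the line means were taken out, while either had r between -0.23 and -0.06 with the beta subunits. *Slc12a2* was most like *Ythdf1* (r = 0.94), *Klhdc2* (r = 0.92) and *Rad23b* (r = 0.91). *Slc4a4* was most like *Tnks2* (r = 0.95), *Peg3* (r = 0.94) and *Osbp* (r = 0.94).

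The other genes of lens ion transport were followed in 5 lists with 95 genes, of which 66 passed the filter on low counts. In *Cryaa*-R49C-homo lenses against WT, 1 of them rose and 6 fell, or 10.6% against 9.79% of all genes. Over all genes 679 were called higher and 685 lower, or 1884 and 254 with total-count scaling. The split was 654 and 506, or 816 and 203, for homo against het, and 4 and 3, or 7 and 1, for *Cryab*-R120G-homo against WT. Marker sums that were lower in the same homo libraries without overlap were those of pigment and ciliary epithelium, at 6.39 to 15.2 CPM against 19.5 to 33.4 in WT, and of lens epithelium, at 62.9 to 73.0 against 78.2 to 107 CPM. Macrophage markers were higher without overlap, at 15.7 to 31.5 against 6.75 to 15.4 CPM, and vessel and mesenchyme markers were at 71.3 and 64.5 CPM in homo libraries 2 and 3. The part of these tissues in the changes was not tested. Among the regulatory pump subunits, *Fxyd1*, the pump regulator phospholemman, fell from 9.24 ± 1.22 to 4.86 ± 0.559 CPM (log2 fold change -0.92, edgeR FDR = 0.00994, n = 3 each). *Fxyd5*, another pump regulator, rose from 2.35 ± 0.696 to 5.91 ± 2.00 CPM (log2 fold change 1.33, edgeR FDR = 0.0198). Total-count scaling moved the median of all genes in this comparison from 0.0 to 0.41 on the log2 scale, and *Fxyd1* with it to -0.49 (edgeR FDR = 0.227). Without WT library 2, *Fxyd5* stood at 1.08 (edgeR FDR = 0.129) and *Fxyd1* at -0.83 (edgeR FDR = 0.0592), and the *Fxyd5* call was also lost without homo library 2 or 3 (edgeR FDR = 0.0954 and 0.071). With homo libraries 2 and 3 left out, which leaves 1 homo library whose spread is taken from the other groups, *Fxyd5* stood at 0.64 on the log2 scale (edgeR FDR = 0.423) and *Fxyd1* at -0.81 (edgeR FDR = 0.0772).

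Of the 11 tested cation-chloride cotransporters and kinases, the family of *Slc12a2*, only *Wnk3*, a kinase that acts on these transporters, fell in *Cryaa*-R49C-homo lenses (log2 fold change -1.28, SE 0.34, edgeR FDR = 0.0172). None of the 13 tested bicarbonate and proton transporters and carbonic anhydrases, the family of *Slc4a4*, was called. Of 7 calcium transporters, the sodium-calcium exchanger *Slc8a1* fell, from 1.56 ± 0.368 to 0.496 ± 0.315 CPM (log2 fold change -1.59, edgeR FDR = 0.0296). Of 28 channel genes, *Clic5*, an intracellular chloride channel protein, and *Ano1*, a calcium-gated chloride channel, fell by 5.48 and fell by 1.4 on the log2 scale (edgeR FDR = 8.95e-10 and 0.00715). *Wnk3*, *Slc8a1* and *Ano1* stood at -0.82, -1.08 and -0.92 with total-count scaling, where the median of all genes was 0.41 (edgeR FDR = 0.12, 0.149 and 0.0654). Without WT library 2 they stood at -1.01, -1.55 and -1.07 (edgeR FDR = 0.126, 0.0893 and 0.0787). *Wnk3* was also lost without homo library 3, and *Slc8a1* without WT library 1, homo library 2 or homo library 3 (log2 fold change between -1.66 and -1.20). *Slc8a1* stood at -0.99 with homo library 1 as the single homo library (edgeR FDR = 0.266).

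*Clic5* had 6.22 to 8.68 CPM in WT, 1.5 to 3.51 in het and 0.152 to 0.157 in homo libraries of the *Cryaa* line, with no overlap between the 3 groups. It was also the only gene called in *Cryaa*-R49C-het lenses (log2 fold change -1.71, SE 0.27, edgeR FDR = 0.024), a call lost in the 9 *Cryaa* libraries alone at the same log2 value of -1.71 (edgeR FDR = 0.848), and without each of WT libraries 1, 2 and 3 and het libraries 1 and 3 at values of -1.79 to -1.49. This comparison was named after its values were seen. In the *Cryab* line its libraries lay between 92.6 and 118 CPM. None of the 66 genes was called in the *Cryab* line. The homo effect differed between the lines for *Clic5* (-5.48, edgeR FDR = 5e-08).

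Between the WT groups, 5 of the 66 genes were higher at day 14 and 14 were lower, 28.8% against 23.2% of all genes, in libraries whose vessel, macrophage, pigment and lens epithelium markers were lower and whose fibre markers were higher, as given above. *Fxyd1* rose from 9.24 ± 1.22 to 40.7 ± 3.93 CPM (log2 fold change 2.14, edgeR FDR = 9.94e-07), the carbonic anhydrase *Car14* from 7.24 ± 0.664 to 27.2 ± 2.32 CPM (log2 fold change 1.91, edgeR FDR = 0.00468) and *Clic5* from 7.13 ± 1.35 to 110 ± 6.94 CPM (log2 fold change 3.95, edgeR FDR = 2.01e-09). The potassium-chloride cotransporter *Slc12a7*, which moves ions out of cells, fell by 1.70 on the log2 scale (edgeR FDR = 0.0166). *Fxyd6* fell by 2.73, the calcium pump *Atp2b4* fell by 2.68, the scramblase *Ano6* fell by 3.09 and *Lrrc8c*, a subunit of volume-regulated anion channels, fell by 2.99 on the same scale (edgeR FDR = 0.000619, 0.0169, 0.000117 and 0.000841). *Fxyd5* went from 46 to 77 counts per library at day 2 to 2 or 3 counts at day 14. With total-count scaling, which moved the median of all genes to -1.61, the log2 fold change was 0.59 for *Fxyd1* (edgeR FDR = 0.044), 2.41 for *Clic5* (edgeR FDR = 7.96e-07) and 0.33 for *Car14* (edgeR FDR = 0.528). The calls of *Slc12a7* (without *Cryaa*-WT library 3 or *Cryab*-WT library 1 or 2) and *Atp2b4* (without *Cryab*-WT library 2 or 3) were lost when single libraries were left out, at log2 values between -1.61 and -1.39 and between -2.30 and -2.23. The median log2 fold change of the 28 channel genes was -0.65, against -0.07 over all genes.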

How the data were processed

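The authors sequenced poly-A RNA as single reads, aligned it with STAR to the GRCm38 mouse assembly and counted reads per Ensembl gene with featureCounts 1.4.5, per the labels and the study's methods. The deposited count table holds raw read counts for 40800 genes. The deposited CPM table and the deposited RPKM table were used only to obtain each gene's exon length from their ratio. A deposited table of moderated log2 CPM was not used. Positions came from GENCODE vM21 of the same assembly.

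Library totals of 14272174 to 29639719 counts set the precision. The 5 genes had between 8 counts (*Atp1b2*) and 2376 counts (*Atp1b3*) in a library, and counting error weighs most on *Atp1b2* in *Cryab*-WT libraries 2 and 3. Sample titles gave the groups, because 6 *Cryab* libraries carry the name of the *Cryaa* line in their genotype label.

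Counts were analysed with edgeR 4.0.16 in R 4.3.3. TMM factors were computed on the 13938 genes that filterByExpr kept, and a single fit over the 18 libraries had a coefficient for each of the 6 groups. Each contrast was tested with the robust quasi-likelihood test, with a Benjamini-Hochberg FDR of at most 0.05 over all genes as the threshold. CPM is the count divided by the scaled library size, times 1000000, and log2 CPM used a prior count of 2. The steps were checked on simulated counts. The strand setting of the counting is not given in the sources used here.

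Shares of beta subunits and marker correlations within a line were tested with exact two-sided permutations (SciPy 1.17.1), the latter over 362880 pairings. Those pairings pool the genotypes of a line and treat its libraries as exchangeable. Markers were read as the sum of CPM over a list and compared on the log2 scale. The 5 genes, the pathway and marker lists and the tests were chosen with earlier results of these data known. From each pathway list, at most 3 genes past the threshold with the largest fold and a mean of at least 10 counts in a group were named per homo comparison and for the WT groups, and for each gene the 3 most alike genes by Pearson correlation. Some genes that the rule or the lists hold are not reported here.

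The labels number the libraries of each group from 1 to 3 without saying what a number marks. The titles of the *Cryab* libraries also carry a further number whose meaning is not given. Those further numbers are adjacent in same-numbered het and homo libraries, but not in same-numbered WT and homo libraries. After group means were removed, same-numbered *Cryab*-WT and *Cryab*-R120G-homo libraries correlated with r = 0.28, 0.18 and 0.16, all above 0.1. Of the pairs examined, those within each line and the WT groups, no other met that in all 3 numbers. Alternatives were RLE scaling, total-count scaling, all 26547 counted genes, DESeq2 1.42.0, a likelihood-ratio test with robust dispersions, the libraries of 1 line alone, the replicate number as a block and leaving out each library. Leaving out retina-rich or vessel-rich libraries was added after seeing the data.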

Additional observations from a re-analysis of the deposited data

Results flagged for a closer look

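The effect of the homozygous mutation on the chloride channel gene *Clic5* differed between the lines by a test of the difference itself. The effect in the *Cryaa* line was lower by a log2 value of -5.48 (edgeR quasi-likelihood FDR = 5e-08), and the call was kept under every alternative run. Line and age cannot be told apart in this difference. None of the 5 sodium pump and cotransporter genes passed this test.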

How the results depend on the processing

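Results for the 5 genes kept their direction and their side of the threshold under most alternatives. The exceptions follow, and their cause was not tested except where fewer samples or genes give it. The number of the 5 genes called moved from 1 to 0 in *Cryaa*-R49C-homo against het, in the libraries of the line alone and with vessel-rich libraries left out (0 to 1 with single libraries left out). It moved from 0 to 1 in *Cryab*-R120G-homo against WT with the likelihood-ratio test, which called *Atp1b2*, and from 3 to 1 between the WT groups with total-count scaling (1 to 3 with single libraries left out). For the difference between lines it moved from 0 to 1 with all counted genes and with the likelihood-ratio test, both of which called *Atp1b2* (0 to 1 with single libraries left out, which called *Slc12a2*).

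Counts over all genes moved more. With all counted genes they were 17 in *Cryaa*-R49C-het, 140 in *Cryab*-R120G-het, 302 in *Cryab*-R120G-homo, 15 in *Cryab*-R120G-homo against het and 798 for the difference between lines, from 1, 1, 7, 0 and 406. DESeq2 gave 2, 12, 20 and 626 for the first 3 of these and the difference between lines. The likelihood-ratio test gave 15, 46, 257, 2 and 1454 for the same 5, 2887 for *Cryaa*-R49C-homo against WT (1364 before) and 3052 against het (1160 before). Total-count scaling gave 2138 for *Cryaa*-R49C-homo, 11596 between the WT groups (3237 before) and 255 for the difference between lines. The libraries of 1 line alone gave 0 in *Cryaa*-R49C-het, 0 in *Cryab*-R120G-het and 677 in *Cryaa*-R49C-homo against het. Of the alternatives chosen after seeing the data, leaving out vessel-rich libraries gave 395 in *Cryaa*-R49C-homo against het, and leaving out retina-rich libraries gave 4 in *Cryab*-R120G-het and 240 for the difference between lines. Leaving out single libraries gave 0 to 2 in *Cryaa*-R49C-het, 731 to 3092 in *Cryaa*-R49C-homo, 453 to 4132 in homo against het, 0 to 3 in *Cryab*-R120G-het, 1 to 13 in *Cryab*-R120G-homo, 1782 to 3172 between the WT groups and 244 to 1800 for the difference between lines.

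Blocking on the replicate number gave 3 called genes in *Cryab*-R120G-het and 18 in *Cryab*-R120G-homo. The block changed no call of the 5 genes. It turned *Atp1b1* in *Cryaa*-R49C-het from -0.01 to 0.01 and *Atp1b2* between the WT groups from 0.11 to -0.60.

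Log2 fold changes changed sign as follows. *Atp1b1* in *Cryaa*-R49C-het was 0.02 with RLE scaling, 0.21 with total-count scaling, 0.01 with all counted genes, 0.02 with DESeq2 and 0.0 in the line alone. Total-count scaling also gave 0.08 for *Atp1b1* in *Cryaa*-R49C-homo, 0.19 for *Atp1b3* in homo against het, 0.17 for *Atp1b3* in *Cryab*-R120G-homo, 0.01 for *Slc4a4* in *Cryab*-R120G-homo against het and 0.03 for *Slc4a4* in the difference between lines. Between the WT groups it gave -0.63 for *Atp1b1*, -1.60 for *Atp1b2*, -0.49 for *Atp1b3*, -1.19 for *Slc12a2* and -0.26 for *Slc4a4*. The likelihood-ratio test gave -2.07 for *Atp1b2* between the WT groups and 0.14 for *Slc4a4* in the difference between lines. Without vessel-rich libraries *Slc12a2* in *Cryaa*-R49C-homo was -0.19, and against het *Atp1b3* was 0.16 and *Slc4a4* -0.28. Without retina-rich libraries *Atp1b3* in *Cryab*-R120G-het was -0.03, *Slc4a4* in *Cryab*-R120G-homo against het 0.27 and *Atp1b2* between the WT groups -2.74.

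Leaving out single libraries changed the sign of values near 0. The ranges in *Cryaa*-R49C-het were -0.11 to 0.11 for *Atp1b1*, -0.26 to 0.79 for *Atp1b2* and -0.06 to 0.26 for *Atp1b3*. In *Cryaa*-R49C-homo they were -0.73 to 0.18 for *Atp1b2* and -0.05 to 0.27 for *Atp1b3*, and against het -0.50 to 0.01 for *Atp1b1*, -0.18 to 0.15 for *Atp1b3* and -0.07 to 0.62 for *Slc4a4*. In *Cryab*-R120G-het they were -0.46 to 2.96 for *Atp1b2* and -0.08 to 0.07 for *Atp1b3*, and in *Cryab*-R120G-homo -0.03 to 0.55 for *Atp1b1*. Against het they were -0.64 to 0 for *Slc12a2* and -0.63 to 0.13 for *Slc4a4*. Between the WT groups *Atp1b2* ranged from -2.73 to 0.70, and in the difference between lines *Slc4a4* from -0.37 to 0.44.

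Shares of beta subunits changed sign on plain counts for *Atp1b1* between the WT groups (0.0533 percentage points), *Atp1b2* in *Cryab*-R120G-het (0.173) and *Atp1b3* in *Cryaa*-R49C-het (-0.122). With single libraries left out, the *Atp1b1* difference ranged from -1.12 to 0.433 in *Cryaa*-R49C-het, from -2.10 to 0.222 in *Cryaa*-R49C-homo and from -0.69 to 0.76 between the WT groups. *Atp1b2* ranged from -1.76 to 3.53 in *Cryaa*-R49C-het, from -3.97 to 1.24 in *Cryaa*-R49C-homo and from -2.22 to 3.94 in *Cryab*-R120G-het. *Atp1b3* ranged from -3.86 to 2.71 in *Cryaa*-R49C-het, from -1 to 6.01 in *Cryaa*-R49C-homo and from -0.473 to 8.05 between the WT groups. Ranked by Spearman correlation, 1 of the 3 most alike genes was shared for *Atp1b2*, *Atp1b3* and *Slc12a2*. Depth limits *Atp1b2* in *Cryab*-WT libraries 2 and 3 and *Slc4a4* most, at 8 to 20 and 33 to 86 counts.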

Other observations

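The genes most like each of the 5 genes differed in exon length. Among the 50 genes most like *Slc4a4* the median exon length was 8098 bases, and among those most like *Slc12a2* it was 6627, against 3764 over all tested genes. Among those most like *Atp1b1*, *Atp1b2* and *Atp1b3* it was 5458, 4125 and 2421. The genes themselves have 10815 (*Slc4a4*), 6520 (*Slc12a2*), 2422 (*Atp1b1*), 4085 (*Atp1b2*) and 2389 bases (*Atp1b3*), so that for *Atp1b1* the alike genes were longer than the gene. The values are a description of these 18 libraries, and the part of transcript length in the likeness was not tested.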
